A study of Homo sapiens with 16 samples.

Results

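The comparison described here is carbon-ion (C12) irradiation against no irradiation 4h after exposure in A549, an established line of human lung adenocarcinoma cells. It rests on 4 of the 16 arrays of the study, chosen by their labels: replicates 1 to 4 of the 4h carbon-ion group. On each array, RNA of an irradiated plate was hybridised together with RNA of the unirradiated control plate of the same culture, 1 dye for each, so that every value is a ratio of irradiated over control cells. The other groups, with 4 arrays each, were C12 at 1h, X-rays at 4h and X-rays at 1h, each against control plates of its own. The carbon ions came as a spread-out Bragg peak from a heavy-ion synchrotron, and the X-rays from a clinical linear accelerator. Per the labels, each RNA sample was a pool of 2 independent experiments. The dose is not stated in the labels used here, so it is not known whether C12 and X-rays are compared at equal dose. The ratios hold no expression level, so the markers of the cell line show changes and not presence. Of 17 lung epithelial and carcinoma markers, 0 passed the limma test (1 at an unadjusted p under 0.05, against 4.5% of all genes), and their median log2 ratio was 0.01.

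Carbon ions deposit their energy densely along the track and leave clustered DNA double-strand breaks that cells repair poorly. Such breaks activate the kinase ATM, which stabilises the transcription factor p53. p53 switches on genes that stop the cell cycle, above all CDKN1A, genes that promote cell death, such as BBC3, and genes that restrain p53 itself, such as MDM2 and PPM1D. The cell cycle inhibitor encoded by CDKN1A is also known to lead, through the DREAM repressor complex, to lower transcription of genes needed for G2 and mitosis.

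The direction of the deposited ratios was not settled by the labels. Carbon-ion arrays with the same labelled dye orientation had correlations over all features from -0.87 to 0.85, with a median r of -0.83. They correlated at 0.80 to 0.85 when grouped by the labelled dye orientation of the X-ray array with the same number. The ratios of replicates 1 and 2 were therefore multiplied by -1 and those of replicates 3 and 4 were kept, which gives irradiated over control under the likely reading. The overall sign of that reading had been chosen, with the values known, so that p53 targets came out positive in the X-ray groups, and the direction of p53 targets is thus no independent evidence. With the sign turned, the 4 genes that rose become 4 that fell, all sizes and tests stay as they are, and the p53 and G2/M genes still have opposite signs. An additive offset of replicates 1 and 2 against the other two would enter the C12 4h change, and response and offset cannot be told apart. The C12 1h arrays, which were turned by the same rule, had a median log2 ratio of 0.01 over the same p53 targets and 0.00 over the same G2/M genes.

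Most of the signal of a carbon-ion array was a dye effect. The fitted dye coefficient had an SD of 0.37 over the 18334 genes, against an SD of 0.08 for the fitted change at C12 4h. With that term removed, the SD over the 4 arrays averaged 0.12 per gene at C12 4h, 0.12 at C12 1h and 0.32 at X-ray 4h. The median standard error of a C12 4h change was 0.06 on the log2 scale. All values by array below are log2 ratios with the fitted dye effect removed, in the order of replicates 1 to 4.

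At 4h after carbon ions, 4 of 18334 genes rose (0.0218%) and 0 fell (0%) in limma at a Benjamini-Hochberg adjusted p under 0.05. All 4 were positive on 4 of 4 arrays, and 3 of them are p53 targets by textbook knowledge: CDKN1A, BBC3 and GADD45A. The fourth was PHLDB3, which encodes a protein with a pleckstrin homology domain. At an unadjusted p under 0.05, 427 genes were positive (2.33%) and 398 negative (2.17%), together 4.5% of all genes. In bulk RNA, a change in the share of cells that express a gene and a change of RNA per cell cannot be told apart.

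CDKN1A (Entrez gene 1026, chromosome 6), which encodes the p21 inhibitor of cyclin-dependent kinases, had log2 ratios of 1.36, 1.21, 0.95 and 0.97 on the 4 arrays. All lay far above 0, with replicates 1 and 2 above replicates 3 and 4. CDKN1A rose 2.18-fold (log2 1.12 ± 0.07 SE, n = 4, limma adjusted p = 0.000129). It was represented by 11 features, and their estimates ran from 0.87 to 1.26, all positive. BBC3 (Entrez gene 27113, chromosome 19), which encodes the pro-apoptotic BH3-only protein PUMA, had 0.85, 0.83, 0.79 and 0.66. These lay close together, and BBC3 rose 1.72-fold (log2 0.78 ± 0.06, limma adjusted p = 0.0002). Its 3 features disagreed, with estimates of -0.04, 0.60 and 1.79, and with the median over features in place of the mean BBC3 did not pass (limma adjusted p = 0.105).

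GADD45A (Entrez gene 1647, chromosome 1), a growth arrest and stress signalling gene, had log2 ratios of 1.09, 0.92, 0.47 and 1.21. Replicate 3 was the lowest and still positive. GADD45A rose 1.89-fold (log2 0.92 ± 0.11 SE, n = 4, limma adjusted p = 0.0163), measured by 1 feature. PHLDB3 (Entrez gene 653583, chromosome 19) had 0.55, 0.54, 0.32 and 0.52, again with replicate 3 lowest. It rose 1.40-fold (log2 0.48 ± 0.06, limma adjusted p = 0.0417), also measured by 1 feature. CDKN1A passed without any 1 of the 8 carbon-ion arrays in turn, and so did BBC3. GADD45A did not pass without 4h replicate 1 (adjusted p = 0.28), 2 (0.159) or 4 (0.0877), nor with every array centred on its median (0.119). PHLDB3 did not pass without 4h replicate 1 (0.373), 2 (0.264), 3 (0.0698) or 4 (0.219), nor without 1h replicate 2 (0.06) or 3 (0.0672), nor with arrays scaled to equal spread (0.0557).

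**Figure D1:**
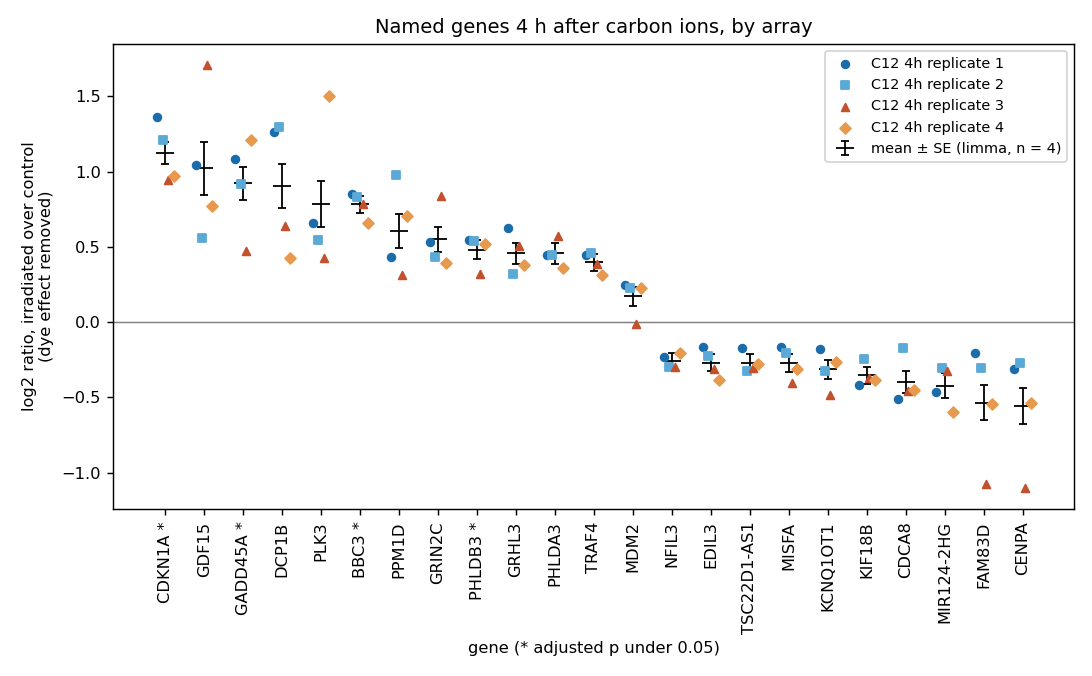
Log2 ratios of irradiated over control cells (vertical axis) for the 10 genes with the smallest p-values in each direction and the genes always reported, 4h after carbon ions. Points are the 4 arrays, black bars the limma mean ± SE, and asterisks mark the 4 genes that passed; CDKN1A, BBC3, GADD45A and PHLDB3 were positive on all 4 arrays, and the values of GDF15, DCP1B, PLK3 and CENPA spread widely.

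The weight of the dye effect was visible in the 4 genes themselves. Before its removal, the ratios of GADD45A were 0.33, 1.68, -0.29 and 1.97, and those of PHLDB3 were -0.08, 1.16, -0.31 and 1.14. Replicates 2 and 4, whose irradiated plate was labelled with Cy5, lay above replicates 1 and 3, labelled with Cy3. CDKN1A, at 0.92, 1.65, 0.51 and 1.41, and BBC3, at 0.46, 1.23, 0.39 and 1.05, were positive on all arrays before the removal as well. Without a dye term, 0 genes passed in limma and 15 had an unadjusted p under 0.05.

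**Figure D2:**
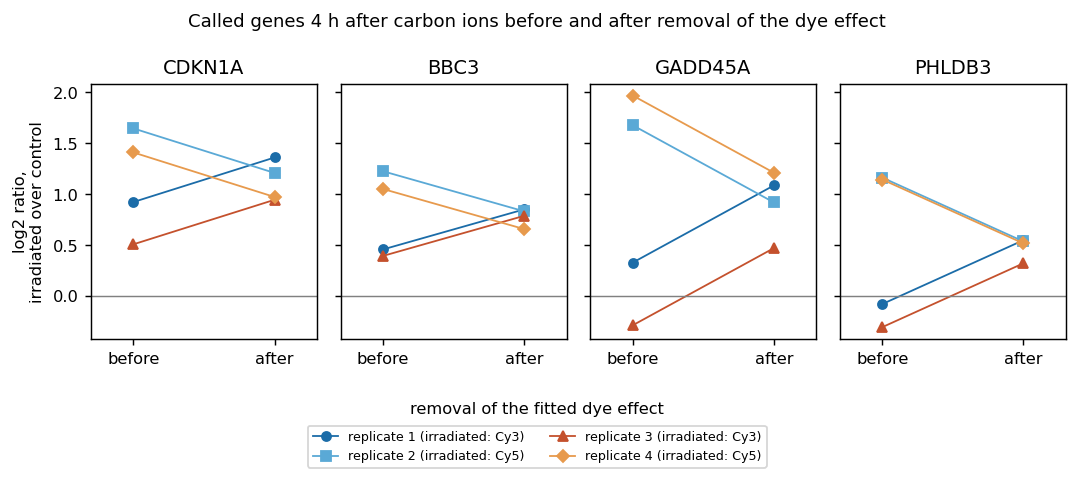
Log2 ratios of irradiated over control cells (vertical axis) for the 4 genes that rose 4h after carbon ions, before and after removal of the fitted dye effect; each line is 1 array. The lines of the Cy3 arrays (replicates 1 and 3) go up and those of the Cy5 arrays (replicates 2 and 4) go down, and after removal all 16 values are above 0.

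The bases before the transcription start of CDKN1A and PHLDB3 are shown because these genes rose and had a window in the RefSeq promoter table (GRCh38.p14), which holds 250 bases before and 50 after the start. BBC3 had a window too, which held no match to the p53 half-site consensus. Capitals in the CDKN1A sequence mark GC boxes (GGGCGG on the plus strand of the gene), the short sites known to bind SP1, and capitals in the PHLDB3 sequence mark a match to the p53 half-site consensus.
CDKN1A (chr6:36678464-36678713, plus strand): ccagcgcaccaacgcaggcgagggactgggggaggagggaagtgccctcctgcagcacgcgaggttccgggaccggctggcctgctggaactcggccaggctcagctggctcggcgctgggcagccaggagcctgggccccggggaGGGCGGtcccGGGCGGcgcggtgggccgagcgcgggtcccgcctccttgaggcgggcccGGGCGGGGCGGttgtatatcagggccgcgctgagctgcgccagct
PHLDB3 (chr19:43504747-43504996, minus strand): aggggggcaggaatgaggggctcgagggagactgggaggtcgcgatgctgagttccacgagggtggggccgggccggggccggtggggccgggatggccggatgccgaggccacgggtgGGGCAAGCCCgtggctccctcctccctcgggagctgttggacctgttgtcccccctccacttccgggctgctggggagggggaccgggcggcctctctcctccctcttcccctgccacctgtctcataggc
The GC boxes of CDKN1A started at positions -104, -94, -45 and -40 from the start, and a GC box on either strand was present in 60.6% of the windows of measured genes. The match in PHLDB3 started at position -131. Matches to the half-site were found in 2 of 41 windows of the p53 targets (4.9%) and in 861 of 14411 windows of measured genes (6.0%). The half-site was not particular to genes that rose. It was found in 1 of 3 windows of these genes. Among the 10 genes with the smallest p-values in the negative direction, it was found in 2 of 7 windows (28.6%), those of CDCA8 and KIF18B. The known p53 sites of CDKN1A lie further upstream than this window.

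The genes next in line in the positive direction did not pass, and are given as values. TRAF4, an adaptor of TNF receptor family signalling, had log2 ratios of 0.44, 0.46, 0.38 and 0.31 (0.40 ± 0.06 SE, limma adjusted p = 0.0616). PHLDA3, a p53 target that inhibits AKT, had 0.44, 0.45, 0.57 and 0.36 (0.46 ± 0.07, limma adjusted p = 0.0692). GRHL3, an epithelial transcription factor, and GRIN2C, an NMDA receptor subunit, had means of 0.46 ± 0.07 and 0.55 ± 0.08 at the same adjusted p. The 2 features of GRIN2C differed, with estimates of 0.91 and 0.19. Replicate 3 was the highest array for PHLDA3 and GRIN2C, while it was the lowest for GADD45A and PHLDB3. All 4 of these genes were positive on 4 of 4 arrays.

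GDF15, a stress-induced cytokine and p53 target, had the second highest mean of the named genes, with log2 ratios of 1.05, 0.56, 1.71 and 0.77. Replicate 3 was the highest and replicate 2 the lowest, and GDF15 did not pass (1.02 ± 0.17 SE, limma adjusted p = 0.151). DCP1B, which encodes an mRNA decapping factor, had 1.26, 1.30, 0.64 and 0.43. Its replicates 1 and 2 lay well above replicates 3 and 4, and it passed without replicate 4 but not with all arrays (0.91 ± 0.15, limma adjusted p = 0.106). PLK3, a stress-responsive kinase of the polo family, had 0.66, 0.54, 0.43 and 1.50, so that replicate 4 alone exceeded 1 (0.78 ± 0.15, limma adjusted p = 0.269).

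The p53 targets were grouped by role, and most members had positive ratios without passing the test. Of 18 measured genes of growth arrest and stress signalling, 2 rose (CDKN1A and GADD45A), 0 fell and 16 did not pass. In all, 17 of these 18 were positive and 12 had an unadjusted p under 0.05 in the positive direction, against 53.5% and 2.33% of all genes. Their median log2 ratio was 0.26, against 0.00 over all genes. The sestrin genes SESN1 and SESN2, which act against oxidative stress, had means of 0.30 and 0.25. Both were named after their values were seen. TRIM22, an interferon-inducible ubiquitin ligase, was the 1 negative member, at -0.04.

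Of 17 measured p53 targets of cell death, BBC3 rose, 0 fell and 16 did not pass. A positive ratio was found for 15 of them, and 8 had an unadjusted p under 0.05, all positive, against 53.5% and 2.33% of all genes. TNFRSF10B, the TRAIL receptor DR5, had log2 ratios of 0.38, 0.33, 0.23 and 0.29 (0.31 ± 0.06 SE, limma adjusted p = 0.276). AEN, an exonuclease of apoptosis, was as even over the arrays, at 0.36, 0.29, 0.34 and 0.30 (0.32 ± 0.07, limma adjusted p = 0.343). The 2 features of TNFRSF10B differed, with estimates of 0.45 and 0.17. The death receptor gene FAS, named after its values were seen, had a mean of 0.13 with an adjusted p of 1.00. The median of the list was 0.12.

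Of 18 measured BCL2 family genes, BBC3 was the 1 member with an unadjusted p under 0.05 (5.56%), a share near the 4.5% of all genes. PMAIP1, which encodes the BH3-only protein NOXA, had log2 ratios of 0.14, 0.19, -0.02 and 0.19, and BAX, the pore-forming effector, had 0.10, 0.22, 0.14 and 0.03. Their means of 0.12 ± 0.06 each (SE, n = 4) did not pass (limma adjusted p = 1.00 for each). Both were measured by many features, 10 for PMAIP1 and 12 for BAX, of which 10 and 11 were positive. Features of 1 gene read the same RNA on the same arrays and are not replicates. The anti-apoptotic genes BCL2L1 and MCL1 had means of 0.02 and 0.01, and the median of the family was 0.02.

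Of 8 measured genes listed as p53 targets that restrain p53, 0 passed, and the median was 0.03. An unadjusted p under 0.05 and a positive ratio were found for 3 (2.33% of all genes): PPM1D, MDM2 and DUSP5. PPM1D, the phosphatase that dephosphorylates p53 and ATM, had log2 ratios of 0.43, 0.98, 0.31 and 0.70 (0.61 ± 0.12 SE, limma adjusted p = 0.269). MDM2, the ubiquitin ligase of p53, had 0.25, 0.22, -0.01 and 0.23, with 10 of its 11 features positive. The estimates of these 11 features ran from -0.01 to 0.42. The mean of MDM2, 0.17 ± 0.06, was far below that of CDKN1A and did not pass (limma adjusted p = 0.994). DUSP5, in this list although it is a phosphatase of ERK, had 0.28, 0.08, 0.16 and 1.34, so replicate 4 lay far above the others (mean 0.47 ± 0.18). The remaining members had means between -0.08 (COP1) and 0.03 (CCNG1).

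Of 12 measured p53 targets of DNA repair, nucleotide supply and metabolism, 0 passed, 6 had an unadjusted p under 0.05 and a positive ratio (2.33% of all genes), and the median was 0.12. TIGAR, a fructose bisphosphatase that lowers glycolysis, had log2 ratios of 0.33, 0.42, 0.17 and 0.29 (0.30 ± 0.06 SE, limma adjusted p = 0.269). The 2 features of TIGAR differed, with estimates of 0.44 and 0.17. TRIAP1, an inhibitor of apoptosis in mitochondria, had 0.22, 0.35, 0.15 and 0.27. ACER2, a ceramidase, had the highest mean of the list, 0.51 ± 0.12, with arrays from 0.03 to 1.08. The damage recognition genes XPC and DDB2, named after their values were seen, had means of 0.26 and 0.17, while PCNA, the replication clamp, had 0.04 and RRM2B, a ribonucleotide reductase subunit, had -0.02. Taken over the 4 lists, 45 of 55 p53 targets were positive (53.5% of all genes), 27 were positive on 4 of 4 arrays (5.88% of all genes), and the median was 0.15. An unadjusted p under 0.05 in the positive direction was found for 29 of them, against 2.33% of all genes. The count was 20 to 30 with each 4h array left out in turn, where 810 to 930 genes in all had such a p-value in either direction. It was 12 with a dye coefficient shared by all 16 arrays, where only 44 genes in all had such a p-value. Without a dye term it was 8, where 15 genes in all did.

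**Figure D3:**
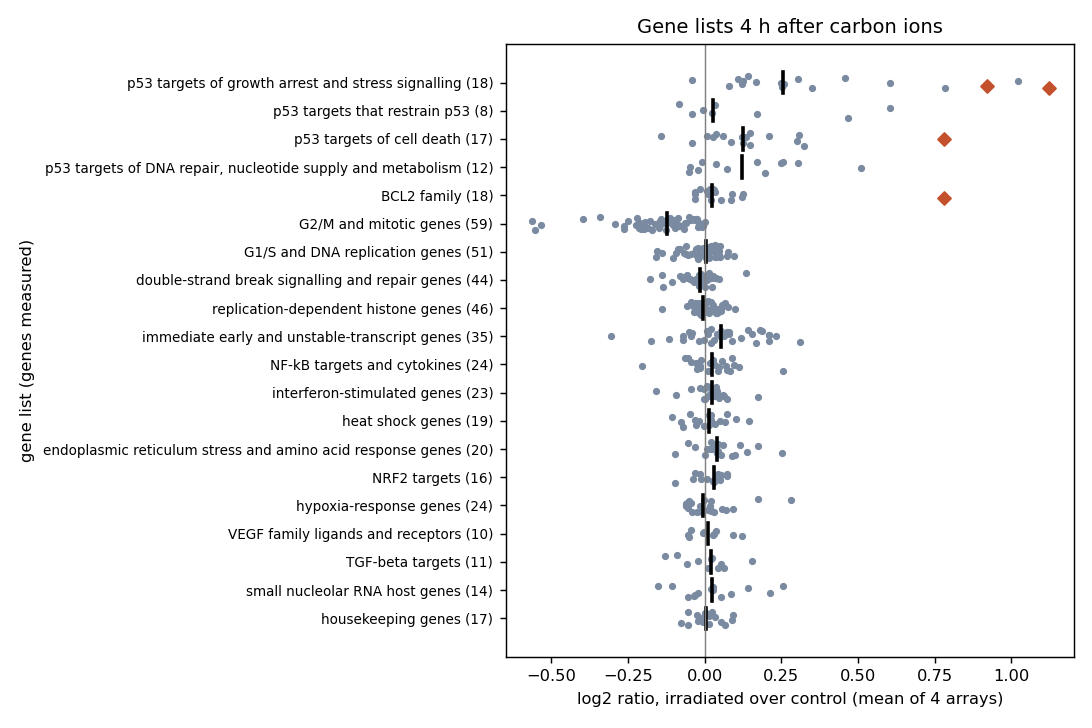
Log2 ratio of irradiated over control cells 4h after carbon ions (horizontal axis, mean of 4 arrays) for each measured gene of 20 lists (vertical axis). Grey points are genes that did not pass, red diamonds the members that rose (BBC3 is in 2 lists), and black bars the list medians; the p53 lists of arrest, death and repair lie to the right of 0 and the G2/M list to the left.

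The G2/M and mitotic genes lay on the other side of 0. Of 59 measured, 58 had negative ratios (46.5% of all genes), but 0 passed in limma and 20 had an unadjusted p under 0.05 in the negative direction, against 2.17% of all genes. That count of 20 was 29 without 4h replicate 1, 17 without replicate 2, 8 without replicate 3 and 13 without replicate 4. The shares of all genes in these fits were 2.97%, 3.49%, 1.3% and 1.53%. The G2/M count was 0 without a dye term and 0 with a dye coefficient shared by all 16 arrays. In those 2 fits the shares of all genes were only 0.0273% and 0.0491%. The median log2 ratio was -0.12, against 0.00 over all genes. CDCA8, a subunit of the chromosomal passenger complex, had -0.51, -0.17, -0.46 and -0.45 (-0.40 ± 0.07 SE, limma adjusted p = 0.215). CENPA, the histone variant of the centromere, had -0.31, -0.27, -1.10 and -0.54 (-0.56 ± 0.12, limma adjusted p = 0.346). FAM83D, a spindle protein, had a like profile, with -0.21, -0.31, -1.08 and -0.55. Replicate 3 gave the lowest value of both CENPA and FAM83D.

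Outside that list, KIF18B, a kinesin of astral microtubules, had the smallest p-value in the negative direction, with log2 ratios of -0.42, -0.24, -0.37 and -0.39 (-0.35 ± 0.06 SE, limma adjusted p = 0.0994). Further G2/M genes, named after their values were seen, were CDCA2 (-0.26), the mitotic kinase gene AURKA (-0.21), the centromere chaperone gene HJURP (-0.22), the cyclin B gene CCNB1 (-0.15), the mitotic kinase gene PLK1 (-0.14) and CDK1 (-0.13). None of these passed. Counted over all arrays, 16 of the 59 were negative on 4 of 4 arrays, against 5.42% of all genes. The number of G2/M genes with a negative ratio was 52 to 58 of 59 with each 4h array left out in turn, and the median then ran from -0.15 to -0.08.

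The deposited values had a median near -0.04 on every array, which the turning of signs moved to opposite sides of 0, so the median over all genes was 0.06 on replicates 1 and 2 and -0.05 on replicates 3 and 4. List medians by array are therefore given relative to the median of the array. The G2/M median was -0.06, -0.15, -0.14 and -0.11 on the 4 arrays, below 0 on each. The median of the p53 targets of growth arrest was 0.27, 0.25, 0.21 and 0.36, and that of the p53 targets of cell death was 0.16, 0.12, 0.04 and 0.19. The G1/S genes lay between -0.02 and 0.00, and the housekeeping genes between -0.03 and 0.02.

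**Figure D4:**
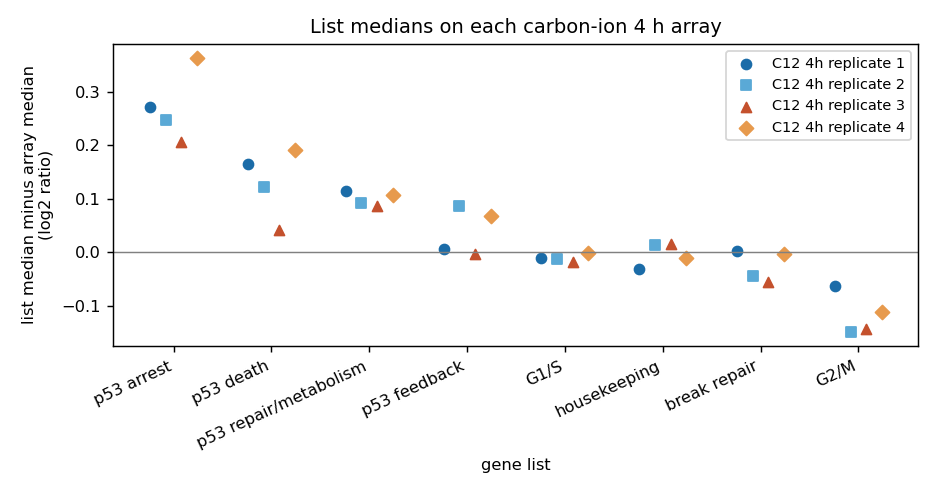
Median log2 ratio of each list minus the median over all genes of the same array (vertical axis) for 8 gene lists (horizontal axis); each point is 1 of the 4 carbon-ion arrays at 4h. The arrest, death and repair lists of p53 targets are above 0 on all 4 arrays and the G2/M list is below 0 on all 4, at -0.15 to -0.06.

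The promoter windows of CENPA and CDCA8 are printed because they carry the elements that G2/M promoters are known to share. Capitals mark the cell cycle homology region (TTTGAA or its reverse complement), a known binding site of the DREAM complex, and the CCAAT box (CCAAT or its reverse complement ATTGG), a known site of NF-Y.
CENPA (chr2:26785806-26786055, plus strand): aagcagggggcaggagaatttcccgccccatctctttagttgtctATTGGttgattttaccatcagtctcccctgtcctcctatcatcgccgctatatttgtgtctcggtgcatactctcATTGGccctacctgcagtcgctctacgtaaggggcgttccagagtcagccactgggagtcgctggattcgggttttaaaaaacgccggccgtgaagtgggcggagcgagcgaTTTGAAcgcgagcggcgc
CDCA8 (chr1:37692266-37692515, plus strand): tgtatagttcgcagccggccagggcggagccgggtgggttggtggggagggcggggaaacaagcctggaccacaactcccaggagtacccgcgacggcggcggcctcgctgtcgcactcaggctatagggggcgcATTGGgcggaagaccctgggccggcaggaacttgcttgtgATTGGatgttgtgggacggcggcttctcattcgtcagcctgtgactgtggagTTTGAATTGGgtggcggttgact
TTTGAA started at position -18 in CENPA and at -23 in CDCA8. The inverted CCAAT boxes of CENPA started at -205 and -130. Those of CDCA8 started at -115, -75 and -18, and the last of them overlapped TTTGAA by 1 base. The CDCA8 window also held matches to the p53 half-site consensus, starting at -194 and -88, which are not in capitals. TTTGAA on either strand was present in 36 of 52 windows of the G2/M genes (69.2%), in 11.6% of the windows of measured genes and in 4.8% of those of the G1/S genes. CCAAT was present in 80.8% of the G2/M windows and in 36.4% of those of measured genes. These motifs were searched for after the values had been seen, G2/M genes are known for them, and a match is a description and not a bound site.

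The other genes with the smallest p-values in the negative direction came from no single list. MIR124-2HG, the host transcript of a microRNA, had log2 ratios of -0.46, -0.30, -0.32 and -0.59 (-0.42 ± 0.08 SE, limma adjusted p = 0.269). KCNQ1OT1, an imprinted long noncoding RNA, had -0.18, -0.32, -0.49 and -0.27. NFIL3, a basic leucine zipper repressor, had -0.23, -0.30, -0.30 and -0.20, and EDIL3, a secreted integrin ligand, had -0.16, -0.22, -0.31 and -0.39. TSC22D1-AS1 and MISFA had means of -0.27 each. These genes were negative on 4 of 4 arrays, and none passed.

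Lists of other stress and signalling responses had medians close to that of all genes and held 0 genes that passed. Among 35 immediate early genes the median was 0.05, with 4 positive and 2 negative at an unadjusted p under 0.05, against 2.33% and 2.17% of all genes. Of these 35, 25 had a positive ratio, against 53.5% of all genes. On 4 of 4 arrays, 9 were positive and 4 negative, against 5.88% and 5.42% of all genes. In that list DUSP1, a phosphatase of MAP kinases, had a mean of 0.21 ± 0.05 (SE, n = 4, limma adjusted p = 0.459), CCN1, a matricellular protein gene, had 0.21 ± 0.06, and ID2, an inhibitor of helix-loop-helix factors, had -0.30 ± 0.07. The 2 features of DUSP1 disagreed, with estimates of 0.40 and 0.01. Among 24 NF-kB targets and cytokines the median was 0.02, with the inhibitor gene NFKBIE at 0.25 and the chemokine gene CXCL8 at -0.21. PTGS2, which encodes cyclooxygenase-2, had a mean of 0.11, with 11 of 11 features, which are not replicates, positive. Among 44 genes of double-strand break signalling and repair the median was -0.01, with BARD1 at -0.14, BRIP1 at -0.18 and RNF8 at 0.13. The 2 features of RNF8 disagreed, with estimates of 0.28 and -0.01. Of the 51 G1/S genes, 28 were positive (54.9%, against 53.5% of all genes), and the median was 0.00. At an unadjusted p under 0.05, 1 was negative (1.96%, against 2.17% of all genes) and 0 were positive. PRIM1, CDK6 and CCNE2, with the smallest p-values of that list, had means of -0.16, -0.16 and -0.14. Hypoxia-response genes had a median of 0.00, with the glucose transporter genes SLC2A1 at 0.17 and SLC2A3 at 0.28 and the factor gene EPAS1 at 0.09. VEGF family genes had a median of 0.01, with PGF at 0.12, FLT4 at 0.09 and VEGFD at -0.05.

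The remaining lists, of interferon-stimulated, heat shock, endoplasmic reticulum stress, NRF2, TGF-beta, histone, small nucleolar RNA host and housekeeping genes, had medians between -0.01 and 0.04. A positive ratio was found for 17 of 20 endoplasmic reticulum stress, 17 of 23 interferon-stimulated and 20 of 46 histone genes, against 53.5% of all genes. At an unadjusted p under 0.05, 2, 0 and 0 of these were positive, against 2.33% of all genes. Fibroblast and endothelial markers had a median of -0.01 over 17 genes and blood and immune cell markers 0.01 over 14, with 0 and 1 genes at an unadjusted p under 0.05, against 4.5% of all genes. Of 13795 features without a gene name, 0 rose and 0 fell in limma, and 721 (5.23%) had an unadjusted p under 0.05.

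The comparison of 4h with 1h asked which of the changes were larger at the later time. The cultures of the 2 times were independent. At C12 1h, 0 genes passed in limma and 679 (3.7%) had an unadjusted p under 0.05. The difference between 4h and 1h passed for 2 genes (0.0109%), CDKN1A and BBC3, and 559 (3.05%) had an unadjusted p under 0.05. CDKN1A had 1.36, 1.21, 0.95 and 0.97 at 4h, against 0.09, 0.19, -0.02 and 0.00 at 1h, with no overlap. The difference was 1.06 ± 0.11 (SE, n = 4 each, limma adjusted p = 0.00969). BBC3 had 0.85, 0.83, 0.79 and 0.66 at 4h, against 0.16, 0.16, -0.01 and 0.14 at 1h, again with no overlap, and differed by 0.67 ± 0.08 (limma adjusted p = 0.038). For CDKN1A the difference did not pass without 4h replicate 2 (adjusted p = 0.0821) or 1h replicate 3 (0.0599). For BBC3 it passed without 4h replicate 4 (0.0464) and did not pass without any 1 of the other 7 arrays (0.113 to 0.27). With the replicate number as a fixed block in place of the dye term, 0 genes passed.

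GADD45A averaged 0.92 at 4h and 0.25 at 1h, a difference of 0.67 ± 0.15 that did not pass (limma adjusted p = 1.00). PHLDB3 averaged 0.48 and 0.17, GDF15 1.02 and 0.07, and DCP1B 0.91 and 0.35 at 4h and at 1h, and none of these differences passed. CENPA averaged -0.56 at 4h and 0.05 at 1h. RAPGEF5, an exchange factor of RAP, had the third smallest p-value, with means of 0.26 at 4h and -0.32 at 1h (difference 0.58 ± 0.09, limma adjusted p = 0.148). C1QTNF5 (-0.32 at 4h and 0.22 at 1h) and CLIC2 (0.32 and -0.16) came next. DUSP1 had nearly the same mean at both times, 0.21 at 4h and 0.25 at 1h. The median of the p53 targets was 0.15 at 4h, against 0.01 at 1h, and of 59 G2/M genes 58 were negative at 4h, against 29 at 1h.

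The comparison with X-rays at the same time asked where carbon ions and X-rays, at doses not given, differed. It used all 16 arrays with weights per radiation quality, since the spread between X-ray arrays was larger. Within an array, the deposited ratios had the same minimum, maximum and SD over features (0.41) on all 16. Sizes of change are thus compared on this common scale. The difference passed for 0 genes in limma, and 549 (2.99%) had an unadjusted p under 0.05. In the same model, 49 genes (0.267%) passed at X-ray 4h. A difference that did not pass does not show that both exposures acted alike.

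CDKN1A had log2 ratios of 1.36, 1.21, 0.95 and 0.97 at C12 4h, against 1.94, 1.26, 1.44 and 1.16 at X-ray 4h, so the ranges overlapped. The difference was -0.33 ± 0.19 (SE, n = 4 each, limma adjusted p = 1.00). BBC3 had 0.85, 0.83, 0.79 and 0.66 at C12 4h, against 0.89, 0.38, 0.98 and 1.00 at X-ray 4h, and differed by -0.03 ± 0.16. GADD45A averaged 0.92 at C12 4h and 1.12 at X-ray 4h, and DCP1B 0.91 and 0.71. PHLDB3 averaged 0.48 at C12 4h and 1.25 at X-ray 4h, a difference of -0.77 ± 0.18 that did not pass (limma adjusted p = 0.288).

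The 5 smallest p-values of the difference belonged to genes with C12 4h means between 0.00 and 0.29. SMIM10L2B averaged 0.11 at C12 4h and 1.00 at X-ray 4h (difference -0.89 ± 0.17 SE, limma adjusted p = 0.258). ORAI3, a calcium channel subunit, averaged 0.00 and 0.73, SERTAD1, a regulator of cell cycle transcription, 0.17 and 0.99, DEPDC7 0.09 and 0.82, and VWCE 0.29 and 1.25 at C12 4h and at X-ray 4h, all with the same adjusted p. All 5 had higher means at X-ray 4h. PGF, a ligand of the VEGF family, averaged 0.12 at C12 4h and 0.85 at X-ray 4h (limma adjusted p = 0.263).

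The p53 targets had a median of 0.15 at C12 4h and 0.48 at X-ray 4h, with 45 and 49 of 55 positive. By role, the medians at C12 4h and at X-ray 4h were 0.26 and 0.89 for growth arrest, 0.12 and 0.48 for cell death, 0.12 and 0.52 for repair and metabolism, and 0.03 and 0.29 for feedback. The G2/M genes had a median of -0.12 at C12 4h and -0.58 at X-ray 4h, with 58 and 59 of 59 negative. Among single members, CENPA averaged -0.56 at C12 4h and -0.96 at X-ray 4h (difference 0.40 ± 0.31), CDCA8 -0.40 and -0.86, and FAM83D -0.53 and -0.51. These are descriptions of genes chosen with results of these arrays known.

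**Figure D5:**
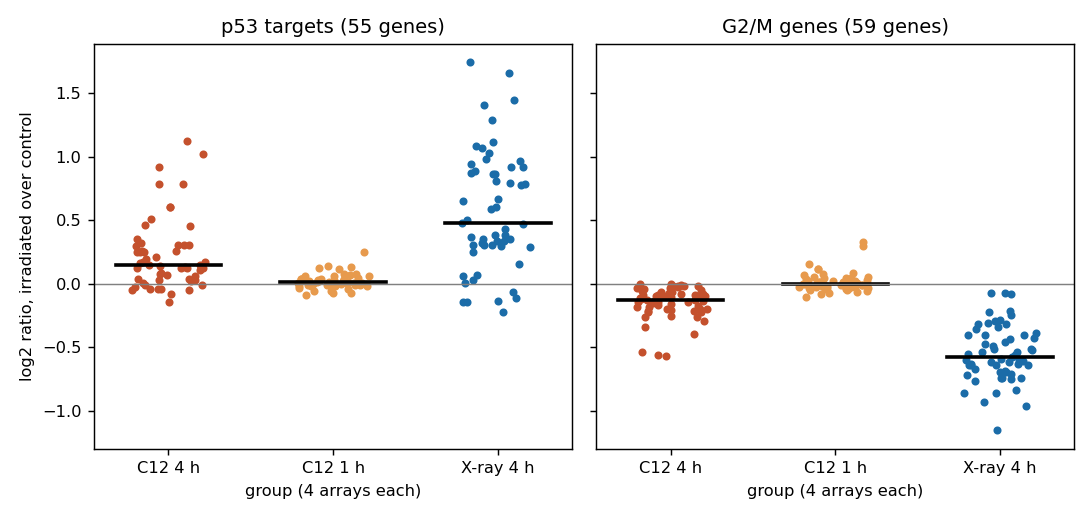
Log2 ratio of irradiated over control cells (vertical axis) of 55 p53 targets (left) and 59 G2/M genes (right) at C12 4h, C12 1h and X-ray 4h (horizontal axis); each point is 1 gene averaged over 4 arrays and black bars are medians. The p53 medians are 0.15, 0.01 and 0.48 and the G2/M medians -0.12, 0.00 and -0.58 in that order.

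The number of genes that passed at C12 4h depended on the model. Fitted to the 4 arrays of C12 4h alone, 18 genes rose and 8 fell, including the 4 named above and, among the negative ones, CDCA8, CENPA, FAM83D, KIF18B and MIR124-2HG, and with weights per quality over all 16 arrays 15 rose and 1 fell. The labels name separate cultures for the 4 arrays. In the main model the spread was estimated from all 8 C12 arrays, at 4h and 1h, and moderated over genes. The tests and SEs of that model therefore do not measure the spread of the 4 cultures at 4h alone.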

How the data were processed

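Expression was measured on 2-colour Agilent arrays. The authors deposited 1 log2 ratio per feature and array for 45220 features. All 16 arrays had the same minimum (-3.3842), the same maximum (2.93222) and an SD over features of 0.41. A difference between arrays in the total spread of their ratios can thus not be seen in these values. limma is named in the submitters' processing notes (version not given there). Log base, background correction and ratio direction are likewise not given in the sources used here, and base 2 was assumed from limma's usual output. No signals were used, and precision is limited by the number of arrays. Ratios were turned by the sign rule given in the report, and features were averaged by gene symbol (31332 features with 1 symbol, 18334 genes). Of the other features, 93 had several symbols and were left out, and 13795 were unnamed. limma 3.58.1 in R 4.3.3 was fitted to the 8 C12 arrays, with 1 mean per time and 1 dye coefficient per gene, followed by empirical Bayes moderation (5 residual and 6.445 prior degrees of freedom). Genes were called at a Benjamini-Hochberg adjusted p under 0.05 over all genes. The difference from X-rays was fitted to all 16 arrays, with array weights of 2.489 (C12) and 0.4018 (X-ray). The test of C12 4h against control was tried on simulated data with independent noise on each array. The difference from 1h and the model with X-rays were not tried in this way. Alternatives changed the arrays, dye term, replicate block, centring, scaling, features, moderation and left-out replicates.

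The genes named are those called, those filled up to 10 per direction by smallest p-value, the 3 smallest p-values of 9 kinds of list, 10 genes always reported and the 5 smallest p-values of each contrast. Others are marked as named after their values were seen. The comparison, its members and all lists were chosen with earlier results of these data known. Promoter windows are from RefSeq (GRCh38.p14) and were found for 14411 of the 18334 genes.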

Additional observations from a re-analysis of the deposited data

Results flagged for a closer look

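Among the genes named, some had 1 array of the 4 at C12 4h far from the other 3 (a gap above Dixon's critical value for 4 values). Replicate 3 was far below the others for PHLDB3 (0.321), for MDM2 (-0.0134) and for EPAS1 (0.0026). Replicate 2 was far above the others for CDCA8 (-0.172), and replicate 4 for DUSP5 (1.34). Among gene lists, the median of the p53 targets of growth arrest was low on replicate 3 (0.156), and that of the small nucleolar RNA host genes was high on replicate 1 (0.229), both before the array medians were subtracted. In this check, 57 genes and 26 lists were examined, and chance flags about 5% of them.

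The effect of carbon ions differed between 4h and 1h by the test of the difference itself for CDKN1A, by 1.06 on the log2 scale, and for BBC3, by 0.669.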

How the results depend on the processing

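The count of genes that rose at C12 4h was 4 in the model used. It was 18 (8 fell) from the 4h arrays alone, 15 (1 fell) with weights over all 16 arrays, 9 with a dye coefficient per time, and 2 with a dye coefficient shared by 16 arrays or with the median over features. It was 0 without a dye term, with untouched ratios or with ratios turned by the labelled dye only, and 2 to 4 with 1 array left out. With arrays centred as well, chosen after seeing the data, it was 2 without any 1 of the 4h arrays. With arrays centred on their median it was 3 (GADD45A lost), and with arrays scaled to equal spread 3 (PHLDB3 lost). With the replicate block, fixed or random, 2 genes passed (CDKN1A and BBC3), and the random block, with a correlation of 0.3281, left GADD45A and PHLDB3 at an adjusted p of 0.0838 each. Between arrays of the same dye orientation, the difference of replicates 1 and 3 at 4h correlated with that at 1h at -0.115 across 18334 genes. That of replicates 2 and 4 correlated at 0.0576. These correlations leave out a shift common to all genes of an array, so they cannot decide whether the numbers mark a pairing. The model used took them as no pairing, and the calls of GADD45A and PHLDB3 depend on that choice. For 4h minus 1h, 2 genes passed, 0 without a dye term or with a fixed replicate block, and 0 to 2 with 1 array left out. At C12 4h, CDKN1A and BBC3 passed with each C12 array left out in turn. Past the threshold were 0 p53 targets of arrest, 0 of death, 0 BCL2 family genes and 0 of the genes singled out earlier without a dye term, and 0 of the last 3 lists with the median over features. With 1 4h array left out, 1 to 2 arrest genes and 0 to 1 of the genes singled out earlier passed. The difference of BBC3 from X-rays, -0.03, turned to 0.01926 without C12 4h replicate 4, and to 0.001564, 0.03607 and 0.04418 without X-ray 4h replicates 1, 3 and 4, and ran from -0.2041 to 0.04418 over all 4h arrays left out. The cause of these changes was not tested.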
